A study of Drosophila suzukii with 24 samples.

Results

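Untreated flies of a field population were set against untreated flies of a lab population, in Drosophila suzukii, the spotted wing drosophila. Both groups are whole wild-type adults, 5 to 7 days old, that received no insecticide, with 3 replicates of 10 individuals each, so that the comparison covers 6 of the 24 samples of the series. The other 18 samples are field and lab flies that outlived spinosad, malathion or zeta-cypermethrin given at their median lethal concentration, and they serve here as separate libraries of the same populations. The labels do not give the origin of either population, the food or rearing of the flies, their sex or a sequencing batch. Population, handling and any batch therefore cannot be told apart, and nothing says whether replicates came from separate cultures.

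RNA sequencing levels are in FPKM, a read level corrected for transcript length and library size, which puts genes of different length on 1 scale. In the authors' deposited tables the 3 replicates of a group are pooled into a single FPKM, and no counts are given. No replicate spread, counting interval or test could be had for any value below, and the depth of the libraries is unknown. Field and lab flies stand in separate tables, each scaled on its own. The untreated values were taken from the malathion table of each population and joined on the gene ID. The log2 ratio of field over lab was centred on its median over the gene models that reached 1 FPKM in both groups, 8371 of 13584. That median was 0.23, a field value 1.17 times the lab value, and after centring a ratio of 0 marks a gene that follows the middle gene. At least 2-fold means a centred ratio of 1 or more, or −1 or less. No gene was chosen by its ratio for entry, but the limit of 1 FPKM in both groups removes genes that nearly vanish in either.

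RNA of a whole fly is a mixture from gut, fat body, muscle, nervous system, cuticle and gonads, so a level reflects both how much of a tissue is present and how active a gene is in it. In such bulk samples fewer cells of a type and less RNA per cell cannot be told apart. Genes that every cell uses, such as those for ribosomes, tend to be expressed at intermediate to high levels in whole flies, while genes with a role in 1 tissue are often diluted to low levels. In Drosophila, genes with very long introns are often those of the nervous system and of development. All gene IDs begin with DS10_, and the tables give no gene names for them. A RefSeq list of 18239 genes from another assembly was searched, and 0 of the 13584 IDs were found in it. Tissue markers, detoxification enzymes and other gene lists could therefore not be applied, and genes are described by level, locus length and scaffold.

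After centring, and at 2-fold or more, untreated field flies differed from untreated lab flies almost wholly in 1 direction. Of the 8371 genes, 2011 were at least 2-fold lower in untreated field flies, 24% of all, and 68 were at least 2-fold higher, 0.812% of all. At 4-fold the numbers were 756 lower and 4 higher. At 1.5-fold the imbalance was smaller, with 2525 lower and 696 higher. Without centring, 1764 genes were at least 2-fold lower and 239 at least 2-fold higher. Most genes lay close to the centre, with 4666 (55.7%) within 0.5 of it. The quartiles were −0.92 and 0.32, and the middle 90% of the genes ran from −2.28 to 0.67, so the lower tail was the far longer one. At the limit itself, the last gene counted as lower had a ratio of −1.001 and the next one −0.995; the last counted as higher had 1.000 and the next one 0.994. The limit thus cuts through a continuous range.

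The lower genes formed a hump of their own. In bins of 0.25 the tallest bar, from 0 to 0.25, held 1675 genes. From there the bars fell to 264 genes between −1.5 and −1.25, rose again to 364 genes between −2 and −1.75, and then ran out. The bar from 0.25 to 0.5 was almost as tall as the tallest, with 1481 genes. The bulk of genes thus sat slightly above the median, and a separate set sat about 3- to 4-fold below it. The field over lab ratios of the survivors, described further on, fell off on the lower side with no such hump.

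**Figure D1:**
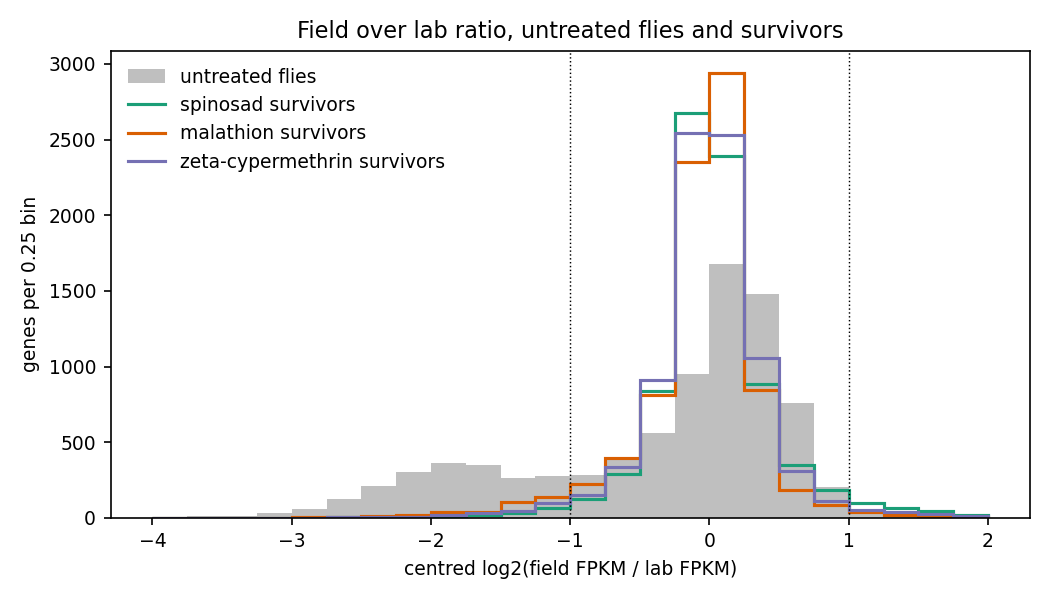
Number of genes per 0.25 bin of the centred log2 ratio of field over lab FPKM, for untreated flies (grey) and for survivors of each insecticide (lines); dotted lines mark 2-fold. The grey bars have a tall peak of 1675 genes just above 0 and a low hump of 364 genes between −2 and −1.75, where the 3 lines are near the axis; genes beyond −4 or 2 are not drawn.

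In the authors' pooled values the 2011 lower genes had a median of 4.23 FPKM in untreated field flies and 13.9 FPKM in untreated lab flies. Together they made up 6.91% of the summed FPKM of untreated field flies and 18.4% of that of untreated lab flies. The 68 higher genes had a median of 16.2 FPKM in untreated field flies and 5.89 FPKM in untreated lab flies, and made up 0.564% and 0.196% of the sums. The 10 strongest genes of each group took 6.46% of the sum in untreated field flies and 7.01% in untreated lab flies, so neither group was dominated by a handful of transcripts.

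The limit of 1 FPKM hides part of the same asymmetry. In untreated field flies 8418 genes reached 1 FPKM, against 9349 in untreated lab flies. There were 978 genes at 1 FPKM or more in lab flies and below it in field flies, and 47 genes the other way round. The 978 were mostly weak, with a median of 1.81 FPKM in untreated lab flies, but 53 of them were at 5 FPKM or more there. Of the 978, 81.5% reached 1 FPKM in field flies that outlived zeta-cypermethrin, 80.9% in field spinosad survivors and 69.9% in field malathion survivors. In lab survivors of zeta-cypermethrin, spinosad and malathion the shares were 84.3%, 74.9% and 81.2%. Each of the other field groups, taken alone, thus had most of the 978 genes at 1 FPKM or more. The 978 were chosen for a value below 1 FPKM in untreated field flies, which by itself favours higher values in the other groups. These shares are therefore a description and no separate evidence about untreated field flies.

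A value of exactly 0 was rare among such genes. Only 28 genes were listed at 0 in untreated field flies with 1 FPKM or more in lab flies, and 7 were listed at 0 in untreated lab flies with 1 FPKM or more in field flies. Of the 28, 16 have a locus under 300 bases, where FPKM rests on few fragments. Their lab values ran from 1.06 to 17.2 FPKM. In the field survivor groups 10 of the 28 were at 1 FPKM or more in all 3, and 7 in none. In untreated field flies the 7 genes had 1.05 to 139.99 FPKM, and 5 of these were below 1 FPKM in every field survivor group. In the lab survivor groups 1 of the 7 was at 1 FPKM or more in all 3, and 1 in none. A listed 0 can be a failed estimate, and no fold was computed against it.

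The ratio depended strongly on the level of the gene. Levels were first taken from the mean of the log2 values of both untreated groups. Among genes at 1 to 2 FPKM 80 of 189 (42.3%) were at least 2-fold lower in untreated field flies, with a median ratio of −0.82. Among genes at 2 to 5 FPKM 656 of 949 (69.1%) were at least 2-fold lower in untreated field flies, with a median ratio of −1.62. At 5 to 10 FPKM the share was 51.3% (median −1.09) and at 10 to 20 FPKM 28.4% (median −0.08). It then dropped to 10.7% at 20 to 50 FPKM and 7.43% at 50 to 100 FPKM, where the medians were 0.17 and 0.16. Genes at 2 to 10 FPKM were thus mostly lower in untreated field flies. The weakest class was lower somewhat less often, but there the limit of 1 FPKM in both groups bounds how far a ratio can fall. Genes of middle strength were mostly a little higher than the centre.

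The strongest genes were lower again. At 100 to 500 FPKM the share of lower genes was 9.72% (median 0.03). At 500 FPKM or more 41 of 209 genes (19.6%) were at least 2-fold lower in untreated field flies, and 1 was at least 2-fold higher. The median ratio of these 209 genes was −0.47 and the upper quartile −0.15, so that over 75% of them lay below the centre. They had a single peak: the tallest bar of their histogram, 50 genes, lay between −0.5 and −0.25. They held 40.9% of the summed FPKM in untreated field flies and 47.8% in untreated lab flies.

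A level taken from the same values as the ratio can bend such a curve, because the limit of 1 FPKM trims the lowest classes. Levels were therefore also taken from the 6 survivor groups, which share no library with the untreated ratio. Lower genes were again most frequent at low levels, less frequent in the middle and more frequent again at the top: 37.8% of genes were at least 2-fold lower at 1 to 2 FPKM, 49.7% at 2 to 5 FPKM, 50.6% at 5 to 10 FPKM, 30.9% at 10 to 20 FPKM, 10.8% at 50 to 100 FPKM and 25.6% at 500 FPKM or more. The lowest median ratio was now that at 5 to 10 FPKM, −1.06, against −1.09 by the first measure of level. At 2 to 5 FPKM the median was −0.94, against −1.62 by the first measure, so the depth of the dip and the class that holds it depend on how level is taken. Of the 868 genes of the class from 1 to 2 FPKM only 14.6% passed the limit in both untreated groups. The 37.8% there is 48 of 127 genes and does not describe the class as a whole. Of the 1166 genes of the class from 2 to 5 FPKM 58.8% passed, and of the next class 94.5%. The values at 2 to 5 FPKM thus cover the better part of their class and no more.

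**Figure D2:**
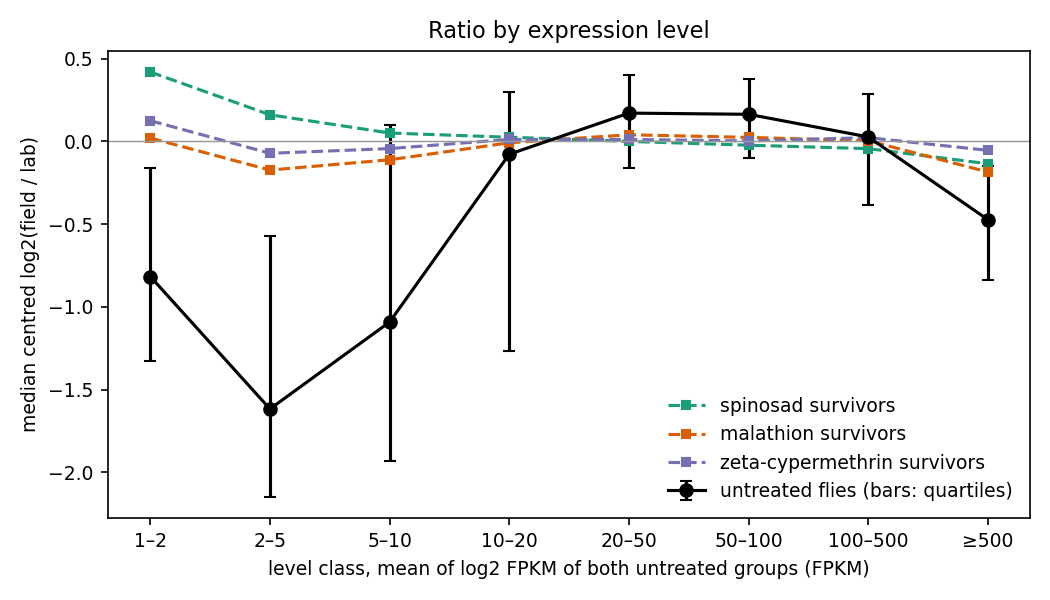
Median centred log2 ratio of field over lab FPKM by level class, for untreated flies (black, bars are quartiles over genes) and for survivors (coloured, medians over the same genes). The black line is lowest at 2 to 5 FPKM (−1.62), above 0 from 20 to 100 FPKM and at −0.47 at 500 FPKM or more, while the coloured medians run from −0.19 to 0.42.

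Inside the weak classes the genes did not all shift by the same amount. Between 1 and 10 FPKM the histogram had a tall bar of 211 genes between −2 and −1.75 and a second one of 151 genes between 0 and 0.25, with 88 genes between −1 and −0.75. From 10 to 50 FPKM the same bars held 109, 797 and 85 genes. From 50 to 500 FPKM they held 38, 709 and 91 genes, and a small lower peak remained, with 39 genes between −1.75 and −1.5 and 30 between −1.5 and −1.25. The lower hump thus lay at a like position from 1 to 10 and from 10 to 50 FPKM. From 50 to 500 FPKM the peak rests on few genes, so its position is uncertain. The limit of 1 FPKM in both groups also trims the deepest ratios from 1 to 10 FPKM. Over these 3 classes the share of genes between −2 and −1.75 shrank with level.

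Long loci were lower more often. For loci under 1 kb the share of lower genes was near the 24% over all genes. These loci also had the largest share of higher genes among the length classes, 2.28% against 0.812% over all genes. Locus length here spans the gene with its introns, and it is not the transcript length used in FPKM. The share of genes at least 2-fold lower in untreated field flies was 25.8% (362 of 1402) for loci under 1 kb, 19.2% for 1 to 2 kb, 20.4% for 2 to 5 kb, 25.8% for 5 to 10 kb, 30.9% for 10 to 20 kb and 43.2% (124 of 287) for 20 to 50 kb. Of the 16 genes with loci of 50 kb or more, 12 were at least 2-fold lower, and their median was 5.37 FPKM in untreated field flies and 14.2 FPKM in untreated lab flies. Long loci also tend to be weak: genes of 20 to 50 kb had medians of 14.8 FPKM in untreated field flies and 20.2 FPKM in untreated lab flies.

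Within classes of level the rise with length was kept, and in percentage points it was smaller. At 10 to 50 FPKM 12.5% of genes of 2 to 5 kb and 28.1% of those of 20 kb or more were lower. At 50 to 500 FPKM the shares were 6.49% and 18.2%, and at 1 to 10 FPKM 59.5% and 76.3%. At the short end the order turned: below 1 kb 22.6% of the genes at 10 to 50 FPKM were lower, more than the 13.4% at 1 to 2 kb. At 50 to 500 FPKM these shares were 12.3% and 5.59%. At 1 to 10 FPKM they were close, 53.6% and 52.1%, and at 500 FPKM or more the order was the reverse, 19.2% and 27.6%.

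**Figure D3:**
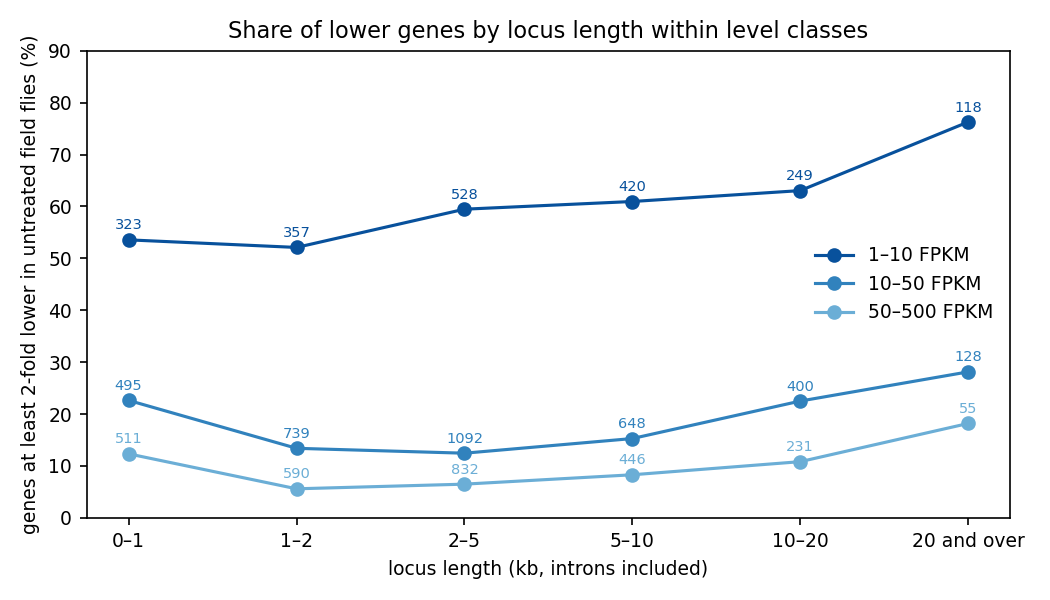
Share of genes at least 2-fold lower in untreated field flies by locus length, in 3 classes of level; the number beside each point is the number of genes. In each class the share is highest at 20 kb or more (76.3%, 28.1% and 18.2%), and the level class moves it more than the length.

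The 68 higher genes had the opposite makeup. Their median locus was 1069.5 bases, against 2890 bases over all 8371 genes and 3616 bases for the lower genes. Loci under 1 kb made up 47.1% of the higher genes, 16.7% of all genes and 18.0% of the lower genes. None of the higher genes (0) had a locus of 20 kb or more, against 3.62% of all genes and 6.76% of the lower genes. With 68 genes and so small a share over all genes, that 0 carries little weight. A weak gene with a short transcript rests on few fragments, so its ratio is among the least certain here.

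Scaffold 9 stood apart from the other long scaffolds. Of the 902 scaffolds, 16 carry at least 50 of the genes compared, 4992 in all. On 15 of these the median ratio lay between −0.29 and 0.16. On scaffold 9 it was −0.94, and 35 of 73 genes (47.9%) were at least 2-fold lower in untreated field flies, against 24% over all scaffolds. None (0) was at least 2-fold higher, against 0.812% over all genes. That was not particular to scaffold 9, since scaffold 6 also had 0 among 292 genes. The genes of scaffold 9 were not weak, with medians of 39.1 FPKM in untreated field flies and 61.2 FPKM in untreated lab flies. After the median of its level class was taken from each ratio, the scaffold still had the lowest median, −0.75, where the highest was 0.23.

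Loci on scaffold 9 are long, with a median of 10.3 kb against 2.89 kb over all genes compared. Within classes of locus length its share of lower genes was still the higher one. Among genes of 5 to 10 kb 54.5% of the 22 on scaffold 9 and 25.4% of the 1509 on other scaffolds were lower. From 10 to 20 kb the shares were 46.2% of 26 and 30.4% of 858, and under 5 kb 38.5% of 13 and 21.3% of 5640. At 20 kb or more they were close, 50% of 12 and 44.7% of 291. In survivors the same genes of scaffold 9 had median ratios of −0.20 for malathion and −0.15 for spinosad and zeta-cypermethrin, the lowest medians of the 16 scaffolds each time. At least 2-fold lower in field survivors were 2.74% of 73 genes for malathion, 1.39% of 72 for spinosad and 1.37% of 73 for zeta-cypermethrin. Over all genes the shares were 4.33%, 1.78% and 2.51%. The shares on scaffold 9 rest on very few lower genes, so no difference from all genes is read from them.

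**Figure D4:**
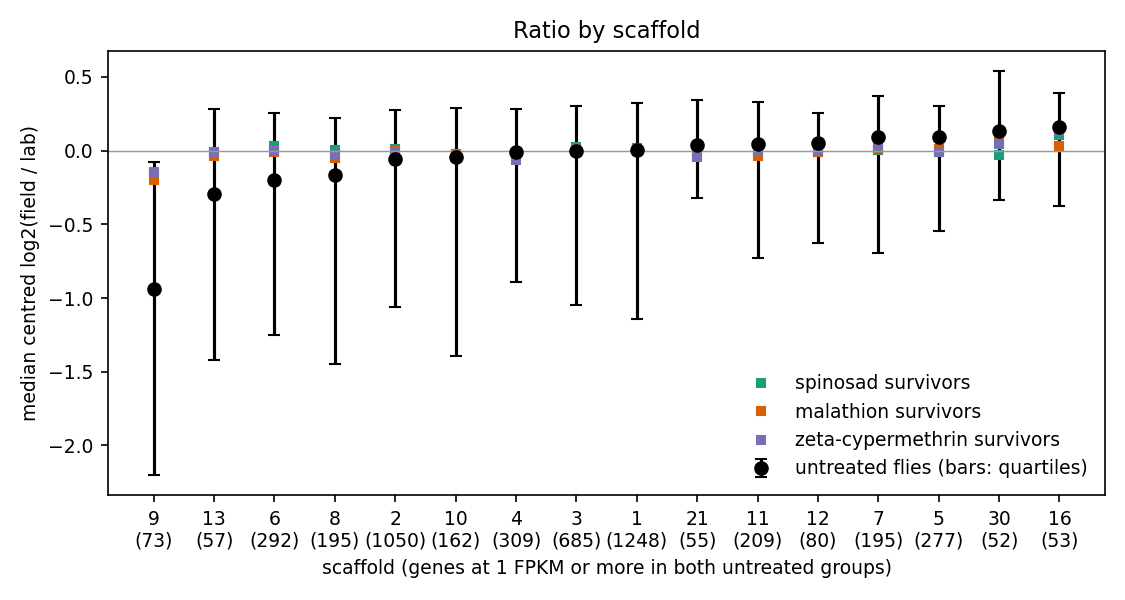
Median centred log2 ratio of field over lab FPKM on the 16 scaffolds with at least 50 genes compared, for untreated flies (black, bars are quartiles over genes) and survivors (coloured medians). Scaffold 9 lies lowest in untreated flies (−0.94) and, by a small margin, in the survivors of each insecticide (−0.15 to −0.20).

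Neighbouring genes had weakly similar ratios. With 1 gene per locus, the ratios of next neighbours on a scaffold correlated at r = 0.218 over 7319 pairs, those of genes 2 places apart at 0.0996, and those of genes 50 places apart at −0.0031 over 3930 pairs. These correlations run across genes of the same pooled libraries and carry no p-value. Next to a gene at least 2-fold lower, 39.4% of neighbours were lower too; next to any other gene it was 18.8%. A lower gene thus had a lower neighbour more often than other genes did, though most neighbours of lower genes were not lower. These values were not adjusted for level or locus length.

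Runs of 5 or more lower loci in a row numbered 28, and the longest had 8. These 3 runs lie on scaffold 2 (11447289 to 11648648), scaffold 3 (10536218 to 10599640) and scaffold 8 (1002014 to 1192922), counted from 1 within the authors' scaffolds, whose genome build is not given in the sources used here. In the run on scaffold 3 the 8 loci had ratios from −2.73 to −1.36, with values of 1.23 to 67.7 FPKM in untreated field flies and 4.98 to 305 FPKM in untreated lab flies. On scaffold 9 a run of 6 loci (223825 to 418959) had a median ratio of −2.77, the lowest among the 11 runs of 6 or more. In malathion, spinosad and zeta-cypermethrin survivors the same 6 loci had medians of −0.39, 0.21 and −0.19.

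The 2 genes with the largest ratios in each direction were taken from those that passed 1 FPKM and 2-fold in all 3 pairs of tables. Choosing genes in this way tends to place the untreated field group at one end, so its rank among the groups is no separate result. DS10_00010522 (scaffold 110, 16665 to 18176) had 3.86 FPKM in untreated field flies and 301 FPKM in untreated lab flies, a centred ratio of −6.51. It stood at 366, 1557 and 751 FPKM in field survivors of malathion, spinosad and zeta-cypermethrin, and at 528, 193 and 541 FPKM in lab survivors. The untreated field flies were thus far below the other 7 groups, which all had 193 FPKM or more.

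DS10_00006764 (scaffold 8, 2475626 to 2490081) had 2.12 FPKM in untreated field flies and 81.2 FPKM in untreated lab flies, a centred ratio of −5.48. In field survivors of malathion, spinosad and zeta-cypermethrin it had 33.6, 99.96 and 156 FPKM, and in lab survivors 144, 26.6 and 379 FPKM. Untreated field flies were again far below every other group, which the choice by ratio favours, and the other 7 groups spread widely. The tables list 5 gene models under this locus, so reads may have been split among them.

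DS10_00009076 (scaffold 59, 194873 to 195322) had 14.4 FPKM in untreated field flies and 1.70 FPKM in untreated lab flies, a centred ratio of 2.86. With the spinosad tables the values were 12.03 FPKM in untreated field flies and 1.75 FPKM in untreated lab flies, and the ratio was 2.57. In field survivors of malathion, spinosad and zeta-cypermethrin it had 4.30, 3.53 and 3.57 FPKM, against 0.666, 2.50 and 3.58 FPKM in lab survivors. DS10_00009208 (scaffold 47, 69597 to 69968) had 8.11 FPKM in untreated field flies and 1.46 FPKM in untreated lab flies, a centred ratio of 2.25. Its field survivors had 2.51, 2.82 and 5.29 FPKM, against 3.02, 1.14 and 0.275 FPKM in lab survivors. Both genes were highest in untreated field flies, which the choice by ratio favours, and both have loci under 500 bases.

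The survivor groups allow the same field over lab comparison in other libraries. It shares no library with the untreated one and was centred in the same way, over genes that reached 1 FPKM in all 4 groups concerned. Far fewer genes passed 2-fold: 359 lower (4.33%) and 86 higher (1.04%) of 8289 in field over lab malathion survivors, 145 lower (1.78%) and 267 higher (3.28%) of 8152 for spinosad, and 208 lower (2.51%) and 144 higher (1.74%) of 8296 for zeta-cypermethrin. The one-sidedness of the untreated flies was thus much weaker for malathion, slight for zeta-cypermethrin and turned round for spinosad.

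The genes lower in untreated field flies did not keep that distance in survivors. Of those that could be compared, 304 of 1977 (15.4%) were at least 2-fold lower in field than in lab malathion survivors, 175 of 1988 (8.80%) for zeta-cypermethrin and 108 of 1952 (5.53%) for spinosad. Set beside the shares over all genes, 4.33%, 2.51% and 1.78%, these are higher in each case and still a small part of the lower genes. The shares over all genes count the lower genes too. For malathion, zeta-cypermethrin and spinosad the lower genes supplied 304 of 359, 175 of 208 and 108 of 145 genes at least 2-fold lower in field survivors. The genes lower in untreated field flies had a median ratio of −1.83 in untreated flies. It was −0.35 in malathion survivors, −0.16 in zeta-cypermethrin survivors and 0.15 in spinosad survivors. Choosing genes by their untreated ratio by itself favours a smaller distance in other libraries, and its part in the drop was not tested. In spinosad survivors 206 of the 1952 (10.6%) were at least 2-fold higher in field flies, so there the genes leaned the other way. Of 1923 lower genes that could be followed in all 3 insecticides, 50 (2.60%) were lower in all 3, 24 (1.25%) were higher in all 3, and 1359 (70.7%) passed 2-fold in none. Over all 8103 genes followed in this way, 55 (0.679%) were lower in all 3, 40 (0.494%) were higher in all 3, and 90.7% passed 2-fold in none.

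The genes higher in untreated field flies moved less but more evenly. Their median ratio was 1.20 in untreated flies, and 0.38, 0.37 and 0.36 in malathion, spinosad and zeta-cypermethrin survivors. Of them, 12 of 63, 14 of 62 and 13 of 63 lay below 0 in these survivors. At least 2-fold higher in field survivors were 8, 7 and 7 of them, or 12.7%, 11.3% and 11.1%, against 1.04%, 3.28% and 1.74% over all genes. The choice of the higher genes by their untreated ratio likewise favours smaller ratios in survivors.

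Across all genes compared the untreated and survivor ratios correlated at r = 0.471 (Spearman rho = 0.549) for malathion over 8289 genes and r = 0.286 (rho = 0.351) for zeta-cypermethrin over 8296 genes. The spinosad ratios, over 8152 genes, gave r = −0.0929 and rho = 0.0155. These points share gene models and population but no library, genes are not independent, and no p-value is given.

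Levels in all 8 groups were set side by side. The 2011 lower genes had a median of 4.23 FPKM in untreated field flies, and 9.54, 13.5 and 13.8 FPKM in field survivors of malathion, spinosad and zeta-cypermethrin. In untreated lab flies the median was 13.9 FPKM, and in lab survivors 11.5, 12.3 and 14.95 FPKM. The untreated field group was thus below the other 7, which ran from 9.54 to 14.95 FPKM, and field malathion survivors were the nearest to it. Choosing the genes by the untreated contrast fixes the gap between the untreated groups, and it tends to place the untreated field group low and the untreated lab group high.

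For the 68 higher genes the untreated field flies stood at 16.2 FPKM, field survivors of malathion, spinosad and zeta-cypermethrin at 11.6, 11.2 and 9.62 FPKM, untreated lab flies at 5.89 FPKM and lab survivors at 7.69, 7.80 and 7.14 FPKM. Choosing these genes by the untreated contrast places untreated field flies high and untreated lab flies low. Among the survivors, each field group was above each lab group. The 4666 genes near the centre had 48.2 FPKM in untreated field flies and 37.6 FPKM in untreated lab flies, while the survivor groups ran from 36.2 to 42.7 FPKM. The part of a single replicate in the untreated field values was not tested, since the tables hold the pooled value alone.

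**Figure D5:**
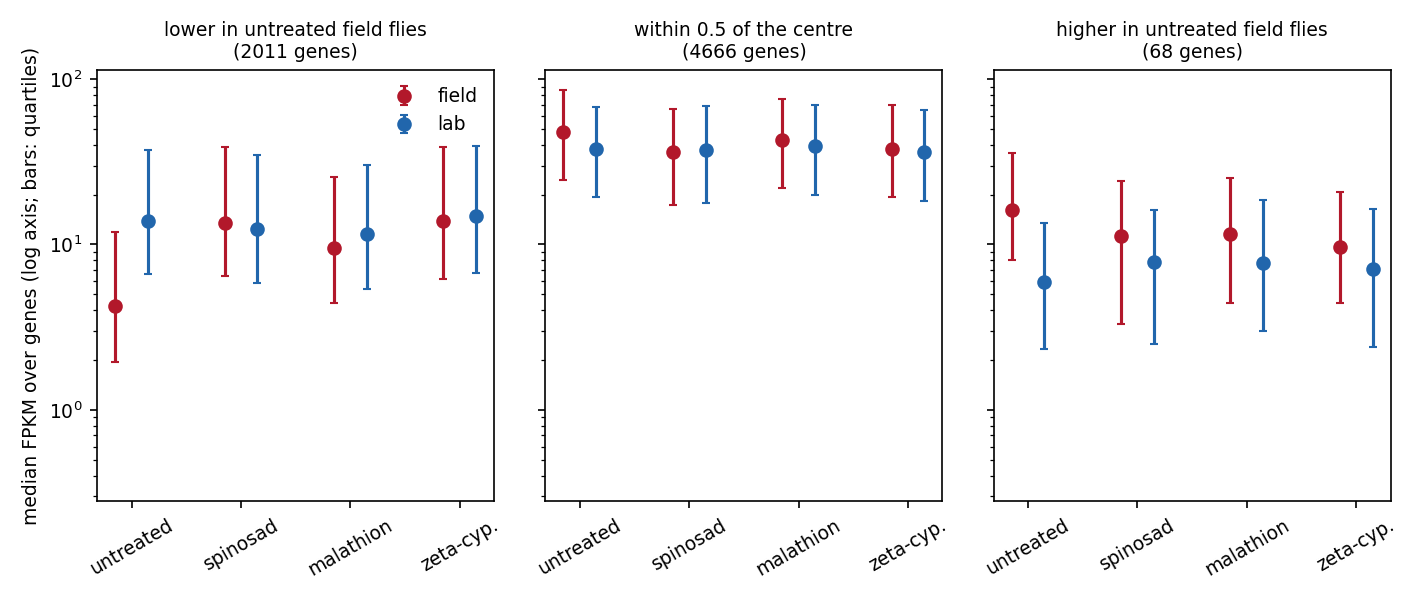
Median FPKM (log axis; bars are quartiles over genes) in the 8 groups, for genes at least 2-fold lower in untreated field flies, genes within 0.5 of the centre and genes at least 2-fold higher. In the lower genes untreated field flies (4.23 FPKM) lie below the other groups (9.54 to 14.95 FPKM). In the higher genes each field survivor group lies above each lab survivor group. The choice of genes by the untreated contrast sets the order of the untreated groups in both sets.

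The untreated values of the other tables gave nearly the same ratios. They come from the same libraries, so this checks the tables and is no replicate. With the zeta-cypermethrin tables the ratios correlated at r = 1 with those used above over 8350 genes, and 1994 genes were lower (23.9%) and 67 higher (0.802%). With the spinosad tables r was 0.993 over 8141 genes, 92.7% of the ratios lay within 0.1 of each other, and 1929 genes were lower (23.6%) and 80 higher (0.98%) of 8162. Of the 1907 lower genes that also passed the limit in the spinosad tables, 1892 were lower there, and of 62 higher genes 54 were higher. No gene (0) changed sides. Past 2-fold in all 3 pairs of tables were 1882 lower and 53 higher genes.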

How the data were processed

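Whole untreated adults of 2 populations were compared by RNA sequencing (stranded, paired-end messenger RNA libraries, per the labels). The deposited FPKM values are 1 per group and table, pooled over 3 replicates, per the file headers; the submitters' processing notes name FastQC, TopHat2 2.0.13, Cufflinks 2.2.1 and Cuffdiff. The genome build, annotation and library scaling are, in the sources used here, not given. In the malathion and zeta-cypermethrin tables the columns have generic names, read as untreated first from the table names; on the log2 scale they correlated with the spinosad tables, whose columns name the controls, at r = 0.986 (field) and 0.985 (lab). Steps of whole reads could not be sought in the FPKM values, because transcript lengths are not in the tables.

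Ratios, classes and counts were computed with Python 3.11.15, numpy 2.4.6 and pandas 2.3.3, and checked on simulated data. Loci start at 0 in the tables and are printed from 1. The gene models under a locus listed more than once number 1455. A pseudocount of 0.1 entered only the survivor level. The members, classes and gene rule were chosen with earlier results of these data known. Named genes are the 2 highest and 2 lowest ratios past 2-fold the same way in all 3 pairs of tables. Alternatives covered the table pair, centring, limit, pseudocount and fold. No replicate values, so no test, were at hand.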

Additional observations from a re-analysis of the deposited data

How the results depend on the processing

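No paired analysis was possible because the tables hold 1 pooled value per group; for the same reason no replicate could be left out. The lower genes exceeded the higher ones under every alternative run. Against 68 higher genes, the count was 239 without centring, 42 when centred on genes at 10 FPKM or more, and 42 when centred on the tallest histogram bar (chosen after seeing the data). It was 24 with a limit of 5 FPKM in both groups, 129 with 1 FPKM in either group and a pseudocount of 0.1, and 193 with no limit and a pseudocount of 1. A fold of 1.5 gave 696 higher and 2525 lower genes, a fold of 4 gave 4 and 756. The 2011 lower genes became 985 with the limit of 5 FPKM, which leaves fewer genes, and stayed between 1764 and 2817 under the other centrings, limits, pseudocounts and tables. Leaving out loci listed for more than 1 gene, chosen after seeing the data, gave 61 higher and 1810 lower. The share of lower genes at 2 to 5 FPKM was 49.7% in place of 69.1% with levels from survivors. Of genes with loci of 20 to 50 kb, 74.5%, 26.4% and 18.5% were lower at 1 to 10, 10 to 50 and 50 to 500 FPKM, against 43.2% together; the class above held too few genes. Genes listed at 0 in field flies numbered 6 in place of 28 with 5 FPKM in lab flies; those listed at 0 in lab flies numbered 4 in place of 7 with 5 FPKM in field flies, and 11 with the spinosad tables. Among genes that reached 10 FPKM in field and lab controls, 18.6% of the lower ones were lower in malathion survivors in place of 15.4%, and 11.2% in place of 8.80% for zeta-cypermethrin. The causes were not tested. Depth is unknown, so weak genes and short loci are the least certain.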
